A study of Mus musculus with 9 samples.

Results

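Nppa, Nppb and Ankrd1 are 3 genes of heart muscle cells that are commonly read as markers of cardiac load. All probe sets annotated to exactly 1 of these symbols were taken, which gave 4 probe sets, 1 for Nppa, 1 for Nppb and 2 for Ankrd1, among 12393 genes measured. The 3 genes were chosen by name with the Notch1 null and wild type values of this series already known, so differences that use those arrays are given as descriptions with a standard error (SE) and no p. The arrays hold whole mouse embryos at 9.5 days post coitum, 9 in all, in 5 genotype groups. Notch1 null embryos carried the targeted allele Notch1tm1Con on both chromosomes (Notch1tm1Con/tm1Con, 2 arrays), with the strain C57BL/6J named only for replicate 1. The Notch1 heterozygote was Notch1tm1Con/+ (1 array). Dll3 null embryos were Dll3neo/neo (2 arrays), Dll3 heterozygotes were Dll3neo/+ (2 arrays) and wild type embryos were +/+ (2 arrays). Both targeted alleles are constitutive, so every cell of a null embryo carries them. The labels do not say whether a replicate is a single embryo, a pool or a separate litter, so a p-value given here covers the spread from array to array and nothing wider, and part of that spread may be technical.

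Natriuretic peptides are hormones that heart muscle releases when its wall is stretched, and they act through receptors that make cyclic GMP. Nppa encodes the precursor of atrial natriuretic peptide, which in the embryo is made by the working muscle of the atria and ventricles as the chambers form. Nppb encodes the precursor of B-type natriuretic peptide and lies beside Nppa in the genome. Ankrd1 encodes an ankyrin repeat protein, also called CARP, that is found in the nucleus and on titin in the sarcomere and is induced by stretch and injury of heart muscle. Notch1 and Dll3 are a receptor and a ligand of the Notch pathway. Notch1 acts in the endocardium and vessels of the embryo, among other tissues, and Dll3 is known chiefly from somite formation. The question these arrays can address for the 3 genes is whether their RNA level differs between the genotypes.

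The 250 bases before each gene's start are printed here because transcription factors with short recognition words in these promoters are well studied regulators of all 3 genes. They were taken from RefSeq (GRCm38.p6), where 3 of 3 members matched, and run 5′ to 3′ along the gene. The windows were chr4:148000472-148000721 (plus strand) for Nppa, chr4:147985650-147985899 (plus strand) for Nppb and chr19:36119845-36120094 (minus strand) for Ankrd1. Capitals mark the words of GATA factors (AGATAA or AGATAG or TGATAA or TGATAG) and the M-CAT word bound by TEAD factors (CATTCC), each searched on both strands.
Nppa: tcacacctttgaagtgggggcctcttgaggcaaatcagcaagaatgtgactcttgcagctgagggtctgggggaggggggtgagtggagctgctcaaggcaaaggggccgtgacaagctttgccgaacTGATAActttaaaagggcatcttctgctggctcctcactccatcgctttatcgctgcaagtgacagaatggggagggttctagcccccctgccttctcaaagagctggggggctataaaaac
Nppb: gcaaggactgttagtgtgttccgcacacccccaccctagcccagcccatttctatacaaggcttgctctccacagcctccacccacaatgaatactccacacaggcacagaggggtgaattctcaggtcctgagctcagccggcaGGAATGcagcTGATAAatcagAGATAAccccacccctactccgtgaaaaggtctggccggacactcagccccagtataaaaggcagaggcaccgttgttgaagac
Ankrd1: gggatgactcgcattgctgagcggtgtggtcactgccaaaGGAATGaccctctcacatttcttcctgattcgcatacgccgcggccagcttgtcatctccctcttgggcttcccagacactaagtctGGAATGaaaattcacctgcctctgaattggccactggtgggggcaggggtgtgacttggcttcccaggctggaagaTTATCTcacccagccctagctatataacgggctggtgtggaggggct

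All 3 windows held a GATA word, which occurred in 26.5% of 32851 promoter windows of the same length. Nppa had 1, from 122 to 117 bases before the start. Nppb had 2, from 95 to 90 and from 84 to 79 bases before the start, and Ankrd1 had 1 on the opposite strand, from 47 to 42. The M-CAT word, present in 12.6% of windows, occurred once in Nppb, from 105 to 100 bases before the start. Ankrd1 had 2 M-CAT words, from 210 to 205 and from 123 to 118, and Nppa had 0. Only 1.02% of windows held 2 or more M-CAT words. Nppb and Ankrd1 held both kinds of word, as did 3.47% of windows.

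The cardiac factor NKX2-5 was searched as AAGTG, present in 40.7% of windows. That word occurred 2 times in Nppa (from 239 to 235 and from 65 to 61) and 0 times in the others. RBPJ, the DNA-binding factor of the Notch pathway, was searched as TGGGAA, present in 21.6% of windows. It occurred 2 times in Ankrd1, from 141 to 136 and from 63 to 58, and 0 times in Nppa and Nppb, while 2.77% of windows held 2 or more. A TATA word (TATAAA or TATATA, on the gene's strand only), present in 11.5% of windows, lay from 9 to 4 bases before the start in Nppa, from 31 to 26 in Nppb and from 27 to 22 in Ankrd1. The hypoxia response core ACGTG (16.6% of windows), the CArG box of SRF (CCWWWWWWGG, 1.47%) and the MEF2 site (YTAWWWWTAR, 2.92%) had 0 matches in all 3 windows. In these patterns W is A or T, Y is C or T and R is A or G. Only full matches were counted, and Nppa holds a word (CTTTAAAAGG) that departs from the CArG pattern by a single base. No matched words overlapped each other. A match describes letters in this window and says nothing of binding.

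**Figure D1:**
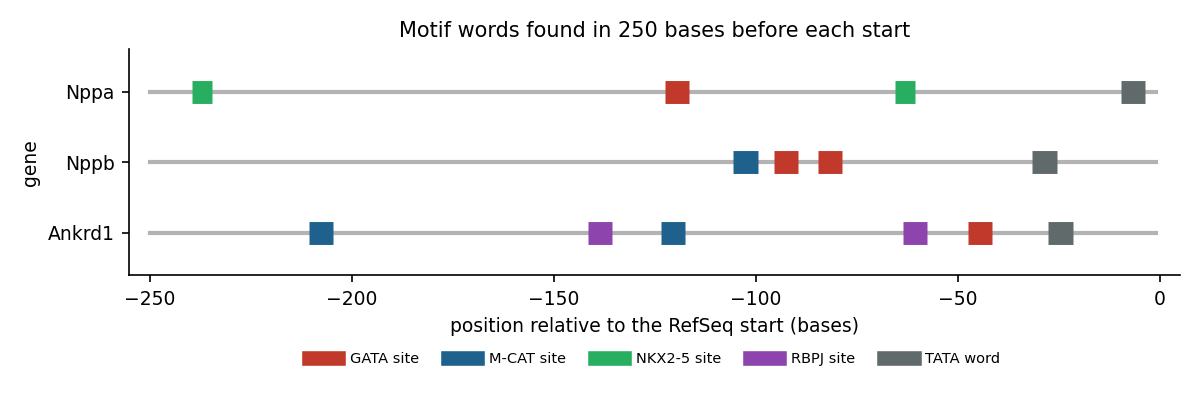
Positions of the matched words in the 250 bases before the RefSeq start of each gene, in bases before the start on the horizontal axis, 1 line per gene, coloured by kind of word. Nppb and Ankrd1 carry both GATA and M-CAT words, Nppa carries the NKX2-5 words and Ankrd1 the RBPJ words.

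The deposited values are ratios, and for all 4 probe sets of the 3 genes the median array stands at 1. By what number each probe set was divided is not known. They keep fold changes between arrays but hold no absolute level, so the 3 genes cannot be ranked against each other and no value says whether a transcript was detected. Differences are given between the group means of log2 ratios, with the SE of a linear model fitted over all 9 arrays with limma.

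Ankrd1 was higher in both Notch1 null arrays than in all 7 others, by 2.26-fold and 2.31-fold over wild type in its 2 probe sets and by 2.14-fold and 1.65-fold over the Notch1 heterozygote. Its first probe set stood at 1.999 and 2.010 in the Notch1 null arrays, at 0.936 in the Notch1 heterozygote, at 1.053 and 1.035 in Dll3 null, at 0.816 and 1.000 in Dll3 heterozygous and at 0.945 and 0.830 in wild type embryos. Both Notch1 null arrays lay above the other 7, which spread between 0.816 and 1.053. The second probe set stood at 1.951 and 2.166 in Notch1 null, at 1.245 in the Notch1 heterozygote, at 1.177 and 0.962 in Dll3 null, at 1.000 and 0.921 in Dll3 heterozygous and at 0.997 and 0.794 in wild type embryos. The same split appeared, with the heterozygous array next highest. Of all 22626 probe sets tested, 7.08% had both Notch1 null arrays above all 7 others, and nothing is read from that count since the genes were picked with the contrast known.

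The means of the first Ankrd1 probe set were 2.00 ± 0.00778 in Notch1 null and 0.888 ± 0.0813 in wild type embryos (SD, n = 2 each). The log2 difference was 1.18 ± 0.12 (SE), and 0.332% of probe sets had a larger one in the same direction. The second probe set averaged 2.06 ± 0.152 in Notch1 null and 0.896 ± 0.144 in wild type embryos (SD, n = 2 each). Its log2 difference was 1.21 ± 0.15 (SE), with 0.292% of probe sets above it. Nothing is read from these shares, since Ankrd1 was picked with this contrast known. Quantile normalization of the arrays lowered the log2 differences to 0.90 and 0.92.

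Against the Dll3 null arrays Ankrd1 was higher in Notch1 null embryos by a log2 difference of 0.94 ± 0.12 and 0.95 ± 0.15 (SE) in its 2 probe sets. Against the single Notch1 heterozygous array the log2 differences were 1.10 ± 0.15 and 0.72 ± 0.18 (SE), and 0.80 and 0.48 after quantile normalization. The probe sets parted on that array, where set 2 was above set 1 by 0.41 on the log2 scale, the largest gap on any array. Between these sets the gap was 0.0351 to 0.412 in size over the 9 arrays, with a median of 0.108. The log2 differences of the Notch1 heterozygote from wild type were 0.08 ± 0.15 and 0.48 ± 0.18 (SE), so whether the heterozygote stood above wild type depended on the probe set. Without wild type replicate 2 the first of these was -0.01 and the second 0.32.

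Nppa, the atrial natriuretic peptide gene, differed little between Notch1 null and wild type embryos and was lowest in the Notch1 heterozygote. Its ratio was 1.019 and 1.345 in Notch1 null, 0.565 in the Notch1 heterozygote, 0.996 and 1.003 in Dll3 null, 0.971 and 0.930 in Dll3 heterozygous and 1.006 and 1.000 in wild type embryos. Notch1 null replicate 1 lay only just above the highest of the other 7 arrays, and replicate 2 lay well above them. The Notch1 null mean was 1.18 ± 0.231 and the wild type mean 1.00 ± 0.00424 (SD, n = 2 each). The log2 difference of 0.22 ± 0.13 (SE) rests on 1 array: it was 0.023 without Notch1 null replicate 2 and 0.42 without Notch1 null replicate 1. Both Notch1 null arrays stood above both wild type arrays in 21.2% of probe sets.

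Nppb, the B-type peptide gene, had overlapping values in Notch1 null and wild type embryos. Its ratio was 0.960 and 1.099 in Notch1 null, 0.659 in the Notch1 heterozygote, 1.000 and 1.019 in Dll3 null, 0.812 and 1.088 in Dll3 heterozygous and 0.786 and 1.002 in wild type embryos. The 8 arrays outside the Notch1 heterozygote mixed freely, and replicates of 1 group spanned most of their range. The log2 difference of Notch1 null from wild type was 0.21 ± 0.16 (SE), and it ran between 0.036 without wild type replicate 1 and 0.39 without wild type replicate 2.

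**Figure D2:**
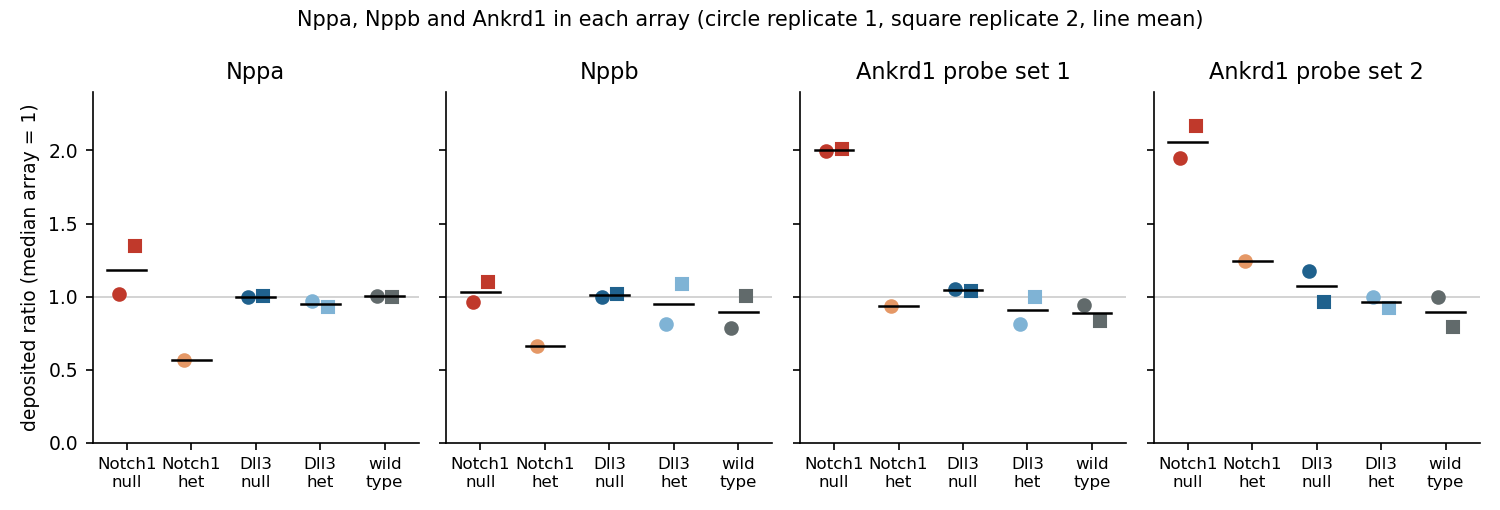
Deposited ratio (vertical axis, median array at 1) of each of the 4 probe sets in every array, by genotype from Notch1 null on the left to wild type on the right, 1 point per array. The Notch1 null arrays stand near 2 for both Ankrd1 probe sets, and the Notch1 heterozygous array is lowest for Nppa at 0.565 and for Nppb at 0.659.

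By group mean, Nppa ran from Notch1 null (1.18) through wild type (1.00), Dll3 null (1.00) and Dll3 heterozygous embryos (0.951) to the Notch1 heterozygote (0.565). Nppb ran from Notch1 null (1.03) through Dll3 null (1.01), Dll3 heterozygous (0.950) and wild type embryos (0.894) to the Notch1 heterozygote (0.659). Among the 4 replicated groups all values of Nppb overlapped. For Nppa the Dll3 null arrays lay just above the Dll3 heterozygous ones, and the step from Notch1 null to wild type was smaller than the SD of the Notch1 null arrays. The last step, down to the Notch1 heterozygote, left the range of all other arrays for both genes, but the spread of that group is unknown. For Ankrd1 set 1 the order was Notch1 null (2.00), Dll3 null (1.04), Notch1 heterozygote (0.936), Dll3 heterozygous (0.908) and wild type (0.888), and the first step was larger than the spread of any group. The Dll3 null arrays lay just above the other 5, which overlapped. The share of all probe sets with such splits of the Dll3 null arrays was not counted, so nothing is read from them. In Ankrd1 set 2 the Notch1 heterozygote (1.25) came second, before Dll3 null (1.07), Dll3 heterozygous (0.961) and wild type (0.896), and these last groups overlapped.

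Over the 9 arrays Ankrd1 varied 2.46-fold and 2.73-fold in its probe sets, Nppa 2.38-fold and Nppb 1.67-fold. The standard deviations on the log2 scale were 0.50 and 0.49 for Ankrd1, 0.33 for Nppa and 0.25 for Nppb. Of all probe sets tested, 1.24% and 1.27% varied more than the Ankrd1 sets, 6.77% more than Nppa and 17.1% more than Nppb. These shares include the Notch1 null and wild type values known when the genes were chosen, so they are descriptions only. As a description over the 9 arrays, which share the 5 genotypes, Pearson's r was 0.93 between the Ankrd1 sets and 0.76 between Nppa and Nppb. It was 0.48 and 0.29 between Nppa and the Ankrd1 sets, and 0.41 and 0.13 between Nppb and the Ankrd1 sets.

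The single Notch1 heterozygous array stood apart for the natriuretic peptide genes. Nppa was below wild type there by a log2 difference of -0.83 ± 0.16 (SE), a 1.78-fold lower ratio, and 98.7% of probe sets had a higher difference. Nppb was below by -0.43 ± 0.20 (SE), a 1.35-fold lower ratio, with 92.7% of probe sets higher. With embryo sex as a covariate the difference of Nppb was -0.21 and that of Nppa -0.71. Both genes had this array below all 8 others, which was true of 12.5% of probe sets. With 1 array in the group nothing separates the genotype from this embryo sample or its hybridisation. Against this array the Notch1 null arrays were higher by 1.05 ± 0.16 for Nppa and 0.64 ± 0.20 for Nppb on the log2 scale (SE). The Nppa difference was 0.85 without Notch1 null replicate 2 and 1.25 without Notch1 null replicate 1.

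The level of the 3 genes was next set beside 28 other genes of heart muscle cells, a list chosen with earlier results of these data known. Of the 28, 7 also belong to the load-related lists counted further below, Ttn and Myh7 among them. The heart muscle list and its mean are therefore not independent of those lists. In a bulk embryo sample, fewer cells of a type and less RNA per cell cannot be told apart. None of the 28 had a larger Notch1 null to wild type difference than Ankrd1 (log2 1.19, its probe sets averaged), whereas 12 had a larger one than Nppa. Myh7 came close to Ankrd1 (1.09 ± 0.14 SE), and Ankrd1 was picked with this contrast known. For 6 of the 28 (Myl7, Actn2, Actc1, Myh7, Ttn and Popdc2, gene averages) both Notch1 null arrays also stood above all 7 others. That split occurred in 7.08% of all probe sets. In the Notch1 heterozygote none of the 28 was further below wild type than Nppa, and 1, Myl2, was further below than Nppb. Myl2 encodes the regulatory light chain of ventricular myosin. Its ratio was 0.643 in the Notch1 heterozygote, against 1.000 and 1.117 in wild type embryos.

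Myl2 was the only 1 of the 28 called in that comparison, with a log2 difference of -0.72 ± 0.13 (SE; limma adjusted p = 0.0331), and was named after its value was seen. A gene was called at an adjusted p under 0.05 over all 12393 genes, and 1.53% of genes were called lower and 0.718% higher in the Notch1 heterozygote against wild type. The call of Myl2 ended without wild type replicate 1 (limma adjusted p = 0.0740) or wild type replicate 2 (0.128). It also ended without either Dll3 heterozygous array (0.0543) or either Dll3 null array (0.0524). With embryo sex as a covariate (the heterozygous sample is female and both wild type samples male) its adjusted p was 0.137, with the 2 groups alone 0.115, after quantile normalization 0.0719 and with the replicate block 0.0550. The Notch1 heterozygous array was the lowest of 9 for 5 of the 28 heart muscle genes and the highest for 2.

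**Figure D3:**
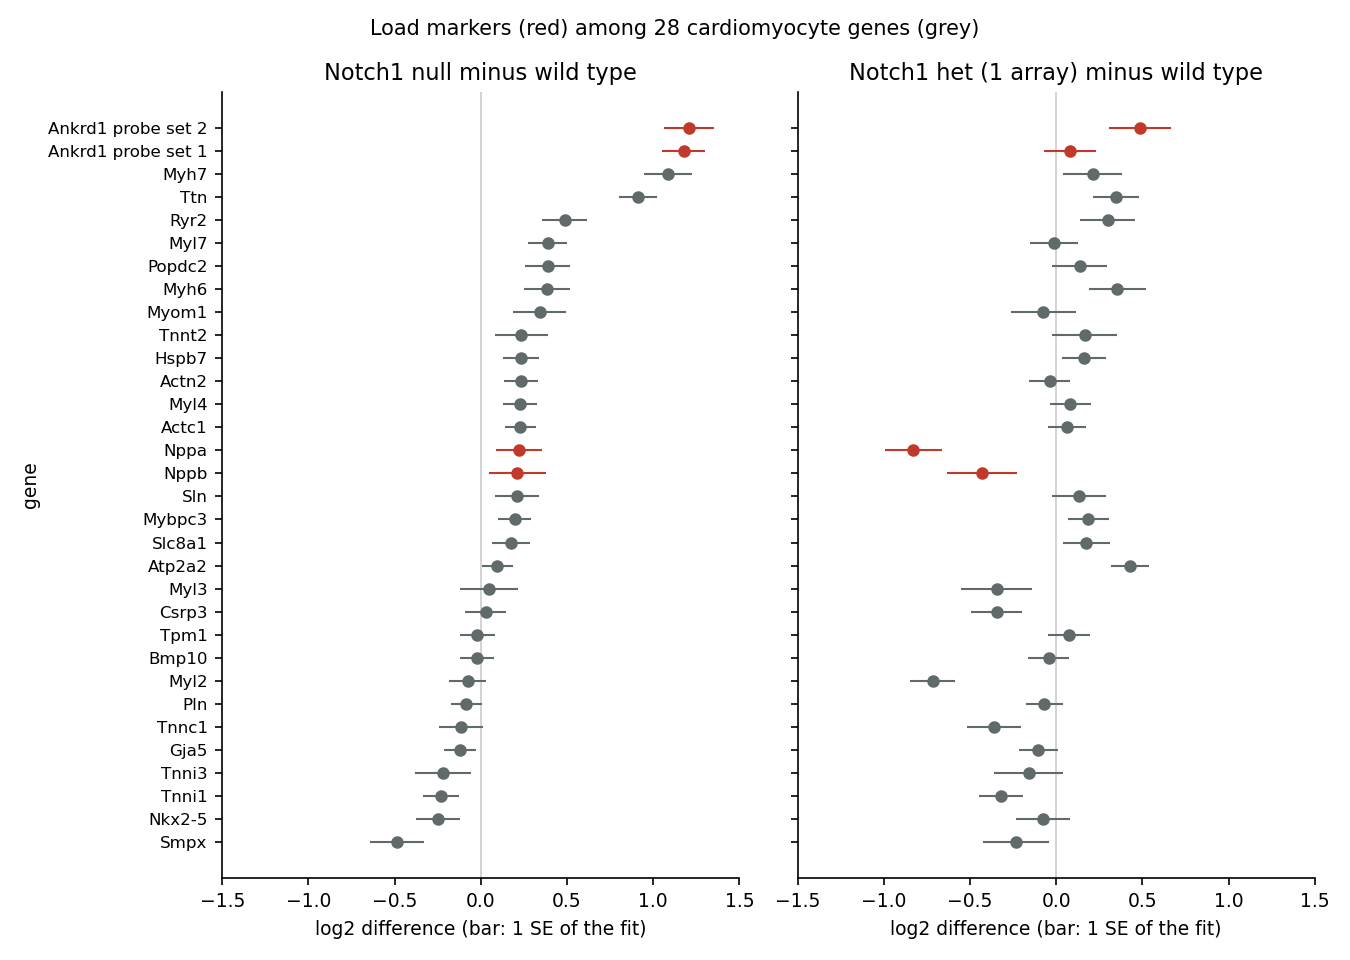
Log2 differences (horizontal axis, bars 1 SE) of the 4 load marker probe sets (red) and 28 heart muscle genes (grey, gene averages), 1 per row, for Notch1 null minus wild type and for the Notch1 heterozygote minus wild type. The Ankrd1 sets have the largest Notch1 null differences at 1.18 and 1.21, and Nppa the lowest heterozygous difference at -0.83.

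Of the 28 heart muscle genes 3 rose in Notch1 null embryos, 0 fell and 25 were not called, where 3.76% of all genes rose and 8.35% fell. Their median log2 difference was 0.19, beside -0.03 over all genes. The genes that rose were Ttn, Myh7 and Ryr2, the calcium release channel (log2 0.49 ± 0.13 SE, limma adjusted p = 0.0392), the last named after its value was seen. The call of Ryr2 ended without any 1 of the Notch1 null or wild type arrays (limma adjusted p up to 0.252). The mean log2 ratio of the 28 genes was 0.07 and 0.15 in the Notch1 null arrays, -0.05 in the Notch1 heterozygote, 0.02 and -0.03 in Dll3 null, -0.01 and -0.07 in Dll3 heterozygous and -0.06 and -0.03 in wild type embryos. The Notch1 null arrays were thus the highest, by 0.15 over wild type.

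Taken relative to that mean in each array, Ankrd1 stood higher in Notch1 null than in wild type embryos, and the peptide genes differed little between these groups. Ankrd1 set 1 averaged 0.89 above the heart muscle mean in Notch1 null and -0.13 in wild type embryos, a log2 difference of 1.03. Set 2 averaged 0.93 in Notch1 null and -0.13 in wild type embryos. Nppa averaged 0.12 in Notch1 null and 0.05 in wild type embryos, a difference of 0.07, and Nppb averaged -0.07 in Notch1 null and -0.13 in wild type embryos, a difference of 0.06. In the Notch1 heterozygote Nppa stood at -0.78 and Nppb at -0.56 relative to the heart muscle mean, below the other 8 arrays.

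Other marker lists moved with the Notch1 null arrays as well. Genes of the hypoxia response, induced when oxygen is low, averaged a log2 ratio of 1.15 and 1.41 over 18 genes in the Notch1 null arrays. They lay between -0.22 and -0.01 in the other 7 arrays, so both Notch1 null arrays stood above all others for this list as they did for Ankrd1. Of these genes 16 rose and 0 fell against wild type, with a median log2 difference of 1.57, and none of them belongs to the load-related lists. The marker lists were chosen with earlier results of these data known, so their counts and adjusted p are descriptions and not independent tests. Endothelial and endocardial genes averaged 0.10 and 0.29 over 16 genes in the Notch1 null arrays, 0.12 in the Notch1 heterozygote, and between -0.11 and 0.02 in the other 6 arrays. The part of the hypoxia and endothelial genes in the Ankrd1 difference was not tested.

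Of the 16 endothelial genes 4 rose in Notch1 null embryos and 0 fell, with a median of 0.17. These were Sox17, Kdr, Sox18 and Tek, named after their values were seen. In that order their log2 differences from wild type were 0.82, 0.86, 0.56 and 0.47 in Notch1 null embryos. In the single Notch1 heterozygous array they were 0.03, 0.57, 0.20 and 0.59. Cdh5, also named after its value was seen, differed by 0.79 ± 0.14 in the heterozygous array and 0.20 ± 0.11 in Notch1 null (SE). Without Notch1 null replicate 2 only 1 of the list was called, and without wild type replicate 1 only 2. Of 7 smooth muscle genes 0 were called (0 at an unadjusted p under 0.05, median -0.04). Of 10 skeletal muscle genes 1 fell, Myog (log2 -0.59, median -0.15), and of 10 genes of primitive erythrocytes 1 rose, Tfrc (log2 0.42, median 0.00). Both were named after their values were seen, and both calls ended without Notch1 null replicate 2 (limma adjusted p = 0.182 for Myog and 0.225 for Tfrc), without wild type replicate 1 (0.147 and 0.0758) and without wild type replicate 2 (0.0747 and 0.189). Against the same wild type arrays, Tfrc differed by 0.79 ± 0.11 in Dll3 null and 0.11 ± 0.13 in the Notch1 heterozygote (log2, SE). It was not called in Dll3 null (limma adjusted p = 0.0749). Myog differed by 0.03 ± 0.14 in Dll3 null and -0.75 ± 0.17 in the single Notch1 heterozygous array (log2, SE). Skeletal muscle genes averaged -0.25 and -0.27 in the Notch1 null arrays and -0.19 and -0.04 in wild type.

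**Figure D4:**
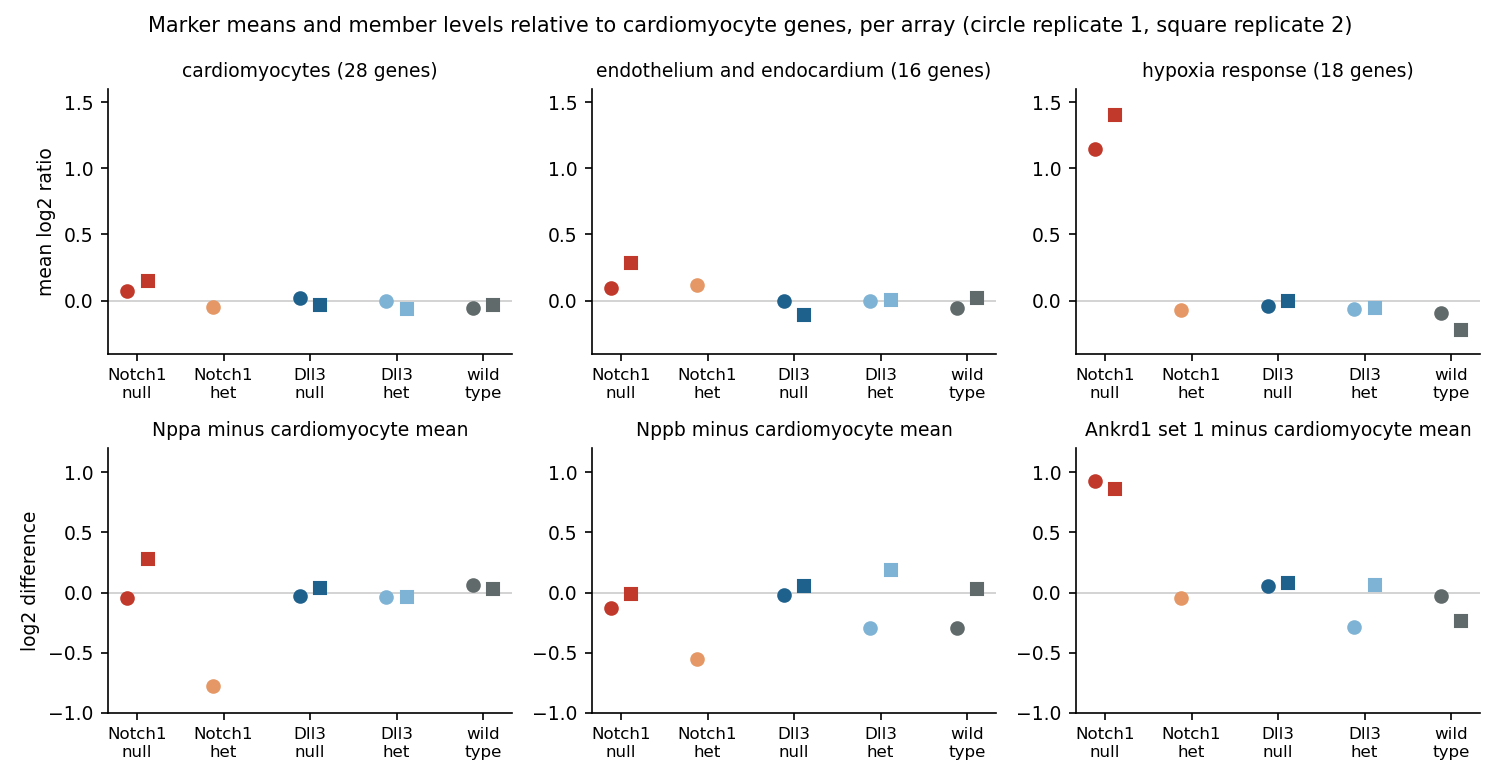
Mean log2 ratio of marker lists and, below, the log2 level of members minus the mean of the 28 heart muscle genes, in each array (circle replicate 1, square replicate 2), by genotype from Notch1 null to wild type. The hypoxia list (1.15 and 1.41) and Ankrd1 set 1 (mean 0.89) stand high in both Notch1 null arrays, and Nppa (-0.78) stands low in the Notch1 heterozygote.

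Of the comparisons fitted, Dll3 null against Dll3 heterozygous embryos was the only 1 whose means used neither Notch1 null nor wild type arrays. This difference was therefore tested, although the 3 genes were chosen with earlier results of these data known. Nppa was 0.996 and 1.003 in Dll3 null and 0.971 and 0.930 in Dll3 heterozygous embryos. Both Dll3 null arrays lay above both Dll3 heterozygous ones for Nppa and for Ankrd1 set 1. How often this occurs among all probe sets was not counted, so nothing is read from it. The fold of Nppa was 1.05 with a 95% interval of 0.854 to 1.30 (limma adjusted p = 0.969 over 22626 probe sets). Nppb differed by 0.10 ± 0.16 on the log2 scale (SE; limma adjusted p = 0.966), with a 95% interval of the fold of 0.831 to 1.39, and its groups overlapped. The sign for Nppb turned when 1 Dll3 array was left out, over a range of -0.11 to 0.31.

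Ankrd1 gave 0.21 ± 0.12 and 0.15 ± 0.15 on the log2 scale (SE), with limma adjusted p = 0.897 and 0.940. The 95% intervals of its fold were 0.951 to 1.40 in set 1 and 0.883 to 1.39 in set 2. These lie below the 2.26-fold and 2.31-fold differences between Notch1 null and wild type embryos. Ankrd1 was picked with the latter contrast known, and the contrasts were not tested against each other, so nothing is read from this. No probe set of 22626 was called between Dll3 null and Dll3 heterozygous embryos (0%), and 1201 of them (5.31%) had an unadjusted p under 0.05. A difference in any of the 3 genes within these intervals remains possible with 2 arrays a group. The intervals are not adjusted over the 22626 probe sets, so they do not give the smallest difference that could be called. Against wild type, the Dll3 null arrays differed by -0.01 ± 0.13 for Nppa, 0.19 ± 0.16 for Nppb and 0.24 ± 0.12 and 0.26 ± 0.15 for Ankrd1 on the log2 scale (SE, given without a test). The Dll3 heterozygous arrays differed from the same wild type arrays by -0.08 ± 0.13, 0.08 ± 0.16, 0.03 ± 0.12 and 0.11 ± 0.15 (SE).

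Genes that act with or upstream of the load markers were counted in 5 lists holding 94 measured genes of 106 listed. Against wild type, Notch1 null embryos had 9 of them higher and 1 lower, with 84 not called and a median log2 difference of 0.07. Over all genes 3.76% rose, 8.35% fell and the median was -0.03. These lists too were chosen with earlier results of these data known, so their counts and adjusted p are descriptions and not independent tests. The counts rest on single arrays: 2 were higher and 0 lower without Notch1 null replicate 2, 4 higher and 0 lower without wild type replicate 1, 3 higher without wild type replicate 2 and 6 higher without Notch1 null replicate 1. The list members Ttn and Myh7 were called under all 20 alternative settings (highest limma adjusted p = 0.0229 and 0.0281). Both were already counted among the heart muscle genes above.

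Of 12 genes of the natriuretic peptide system (receptors, processing enzymes and breakdown of cyclic GMP) 1 rose and 0 fell, with a median of -0.03. The gene that rose was Pde2a, a phosphodiesterase that breaks down cyclic nucleotides, at 1.477 and 2.127 in Notch1 null and 1.151 and 1.117 in wild type embryos. Its log2 difference was 0.64 ± 0.15 (SE; limma adjusted p = 0.0212). Corin, the protease that activates the atrial peptide, differed by -0.13 ± 0.14 and was not called.

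Of 19 stretch-sensing and titin-associated genes 2 rose and 0 fell, with a median of 0.05. Ttn encodes titin, the sarcomeric spring that anchors the Ankrd1 protein. It stood at 1.668 and 1.793 in Notch1 null and 0.966 and 0.876 in wild type embryos, a 1.88-fold difference (limma adjusted p = 0.00174). Nebl, which encodes the Z-disc protein nebulette, stood at 0.913 and 1.028 in Notch1 null and 0.585 and 0.651 in wild type embryos (limma adjusted p = 0.0192). The Dll3 heterozygous arrays, at 0.907 and 0.806, came close to the Notch1 null values of Nebl.

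Of 30 load and stress response genes 4 rose and 0 fell, with a median of 0.14. Myh7, the slow beta myosin heavy chain, stood at 1.775 and 2.104 in Notch1 null and 0.983 and 0.842 in wild type embryos, a 2.12-fold difference (limma adjusted p = 0.00225). Klf15, a factor that restrains muscle growth, stood at 1.426 and 1.439 in Notch1 null and 0.965 and 1.000 in wild type embryos (limma adjusted p = 0.00803). Postn, a matrix protein of the heart cushions, was 1.81-fold higher (0.0111), and Egr1, an immediate early factor, was 1.97-fold higher (0.0121). Ccn2 and Ccn1, targets of the YAP and TEAD factors, had log2 differences of 0.25 ± 0.12 and 0.21 ± 0.11 (SE) and were not called (limma adjusted p = 0.212 and 0.284).

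Of 19 activators of heart genes 1 rose and 0 fell, with a median of 0.09. Gata6, a GATA factor, stood at 1.321 and 1.335 in Notch1 null and 1.094 and 0.893 in wild type embryos, with a log2 difference of 0.43 ± 0.11 (SE; limma adjusted p = 0.0372). Nkx2-5, the cardiac homeobox factor, differed by -0.25 ± 0.13 and was not called (limma adjusted p = 0.258). Of 14 repressors 1 rose and 1 fell, with a median of 0.02. Jarid2, which represses Nppa, stood at 1.471 and 1.566 in Notch1 null and 1.036 and 0.919 in wild type embryos (limma adjusted p = 0.00718). Tbx2, which keeps Nppa out of the atrioventricular canal, stood at 1.046 and 0.821 in Notch1 null, 1.288 in the Notch1 heterozygote, 1.000 and 0.991 in Dll3 null, 0.978 and 0.977 in Dll3 heterozygous and 1.546 and 1.426 in wild type embryos. Its log2 difference of Notch1 null from wild type was -0.68 ± 0.12 (SE; limma adjusted p = 0.00753), and the Dll3 arrays lay inside the Notch1 null range.

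Calls of 8 of these genes ended, by limma's adjusted p, when 1 array was left out. Without Notch1 null replicate 2 the values were 0.0615 for Klf15, 0.0555 for Postn, 0.0571 for Egr1, 0.105 for Pde2a, 0.140 for Nebl, 0.168 for Gata6, 0.0660 for Jarid2 and 0.0569 for Tbx2. Without Notch1 null replicate 1 they were 0.0787 for Egr1, 0.0528 for Nebl and 0.124 for Gata6. Without wild type replicate 1 they were 0.0540 for Klf15, 0.0686 for Postn, 0.0746 for Egr1, 0.0910 for Pde2a, 0.118 for Nebl and 0.0567 for Tbx2. Without wild type replicate 2 they were 0.0625 for Postn, 0.0661 for Egr1, 0.114 for Pde2a, 0.0690 for Nebl, 0.218 for Gata6 and 0.0602 for Jarid2, and without either Dll3 heterozygous array the value for Gata6 was 0.0519.

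**Figure D5:**
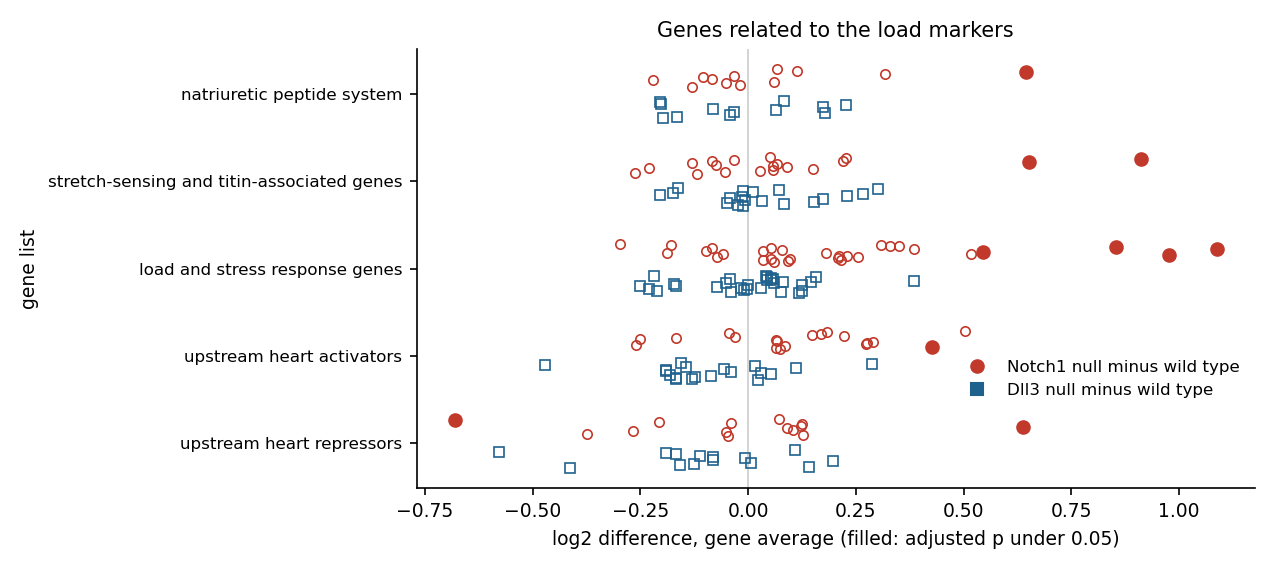
Log2 difference of each gene (horizontal axis, filled points at an adjusted p under 0.05) in the 5 related lists (rows), for Notch1 null minus wild type (circles) and Dll3 null minus wild type (squares). Filled points are 9 to the right of 0 and 1 to the left for Notch1 null, and 0 for Dll3 null.

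In Dll3 null embryos 0 of the 94 genes were called against the same wild type arrays, where 0% of all genes rose and 0.00807% fell. By limma on gene averages 5 of the 94 had an unadjusted p under 0.05. The share was 10.2% among all probe sets, which were fitted singly and so are an unlike unit. The smallest adjusted p was 0.159 and the median log2 difference was -0.01. The genes of lowest p were Wwtr1, the co-activator TAZ (-0.47 ± 0.12, adjusted p = 0.283), Yap1, its relative (0.29 ± 0.10, 0.379), Tbx2 (-0.58 ± 0.12, 0.159), Hdac5, a histone deacetylase (-0.41 ± 0.15, 0.408), and Myh6, the alpha myosin heavy chain (0.39 ± 0.14, 0.403). Dll3 null against Dll3 heterozygous embryos also gave 0 calls among the 94, with 5 at an unadjusted p under 0.05. In the Notch1 heterozygote against wild type 0 of the 94 were called, and 16 had an unadjusted p under 0.05 by limma on gene averages. Among all probe sets, again fitted singly, 19.4% did in that comparison.

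Other genes ran closely parallel to each load marker over the 9 arrays, by Pearson's r of the log2 values. Candidates were probe sets whose standard deviation was at least 0.5 of the member's own. For Nppa, among 10497 candidates, the 5 most alike were Acat1 (r = 0.970), Flot1 (0.964), Acyp1 (0.964), Ncaph2 (0.961) and Plk2 (0.956). Acat1, a mitochondrial thiolase, averaged 1.21 in Notch1 null and 1.07 in wild type embryos and stood at 0.588 in the Notch1 heterozygote, values that its choice by likeness to Nppa already fixes. For Nppb, among 15083 candidates, these were Niban2 (0.922), Asrgl1 (0.890), Naglu (0.879), Syp (0.878) and Gadd45b (0.870). None of these 10 is in the heart muscle or load-related lists.

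For Ankrd1 set 1, among 3545 candidates, the most alike were Vegfa (r = 0.978), Eif4b (0.974), Stc2 (0.972), Bnip3 (0.969) and Dbp (0.967). Vegfa, Stc2 and Bnip3 belong to the hypoxia list. Vegfa, the vascular growth factor, averaged 2.15 in Notch1 null and 0.931 in wild type embryos. Bnip3, a mitophagy receptor, averaged 3.51 in Notch1 null and 0.981 in wild type embryos. As for Acat1, the choice of these genes by likeness already fixes such a step, so nothing is read from it. For Ankrd1 set 2, among 3610 candidates, these were Srpk2 (0.984), Eif4b (0.984), Foxj3 (0.980), Ogt (0.979) and Jarid2 (0.979). Only Eif4b, a translation initiation factor, was named by both Ankrd1 sets.

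Some facts of the whole series bear on these values. Of the targeted genes, Notch1 stood higher in its null in both of its probe sets. The first was at 1.467 and 1.685 in the Notch1 null arrays and 0.916 and 1.011 in wild type (limma adjusted p = 0.0138). The second was at 1.311 and 1.744 in Notch1 null and 0.974 and 1.018 in wild type (limma adjusted p = 0.142). Dll3 stood at 0.804 and 0.933 in the Dll3 null arrays and 1.093 and 1.000 in wild type (limma adjusted p = 0.486). Whether these probes lie outside the altered part of each gene is not known here, so they do not check the labels. The dap spike-in, a bacterial poly-A control RNA, had mean ratios of 5.26 and 2.62 in Notch1 null, 1.00 in the Notch1 heterozygote, 0.360 to 0.403 in the 4 Dll3 arrays and 6.61 and 9.20 in wild type. Every group of targeted alleles, Notch1 null included, lay below wild type for it without overlap. Whatever sets the spike-in therefore cannot be told apart from genotype in any difference from wild type given here. The Notch1 null arrays also lay above the Notch1 heterozygote and all 4 Dll3 arrays for it. The same limit thus holds for the differences of Notch1 null from those groups. By their sex-linked genes 4 embryo samples were female and 5 male, both wild type arrays among the male ones.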

How the data were processed

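Biotin-labelled RNA of whole embryos was hybridised to Affymetrix arrays. RMA (background correction, normalization and probe summary) is named in the submitters' processing notes, with no version. The deposited values are ratios: of 22690 probe sets 19847 had a median of exactly 1 over the 9 arrays, 2824 lay below 1 by more than 0.002 and 0 above. No source used here gives the division behind this. The ratios were converted to log2 with no pseudocount. After 64 control probe sets were left out, 22626 remained, and limma 3.58.1 (R 4.3.3) was fitted to them with 1 mean per group over all 9 arrays (4 residual degrees of freedom) and Benjamini-Hochberg adjustment. Of these, 20380 carried 1 symbol, 691 several and 1555 none, by GEO's platform annotation. For gene lists the probe sets of a gene were averaged, giving 12393 genes.

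The members and all lists (natriuretic peptide system, stretch-sensing and titin-associated genes, load and stress response genes, heart activators, heart repressors, and markers of heart muscle, endothelium and endocardium, smooth muscle, skeletal muscle, primitive erythrocytes and hypoxia) were chosen with earlier results of these data known. Named list genes are the called ones of lowest p, at most 5 a list, or the 3 of lowest p where none was called, of which the text gives a part. The most alike genes are the 5 of highest r. Scripts were tested on simulated data. The number of arrays limits the precision.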

Additional observations from a re-analysis of the deposited data

How the results depend on the processing

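The log2 difference of Ankrd1 between Notch1 null and wild type embryos kept its direction in both probe sets under every alternative run, from 0.90 (quantile normalization) to 1.23 in set 1 and from 0.92 (quantile normalization) to 1.24 in set 2. Leaving out 1 array gave 1.09 to 1.27 and 1.04 to 1.37. For Nppa the range was 0.19 to 0.28, and 0.023 (without Notch1 null replicate 2) to 0.42 (without Notch1 null replicate 1) with 1 array left out. For Nppb it was 0.21 to 0.32, and 0.036 to 0.39 with 1 array left out. The Dll3 null to Dll3 heterozygous differences were not called under any of 17 alternatives (limma adjusted p = 0.703 to 1.00).

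Genes called higher in the 5 related lists, in Notch1 null against wild type embryos, numbered 7 to 13 (13 at an adjusted p under 0.1), and 2 to 10 with 1 array left out. Genes called lower numbered 1 to 2 (2 with the probe set of largest spread per gene), and 0 to 1 with 1 array left out. For Dll3 null against wild type embryos both counts were 0 in all 19 alternatives. By limma's adjusted p, quantile normalization ended the calls of Egr1 (0.0748), Gata6 (0.0898), Ryr2 (0.0798), Tek (0.0608), Myog (0.0653) and Myl2 (0.0719). Embryo sex as a covariate ended those of Gata6 (0.0709), Ryr2 (0.0932), Tek (0.0629), Tfrc (0.0544) and Myl2 (0.137). The 2 groups alone ended those of Gata6 (0.0667), Pde2a (0.0562), Tfrc (0.0590) and Myl2 (0.115, and 0.0761 with all Notch1 and wild type arrays). The probe set of largest spread per gene ended those of Gata6 (0.115) and Tfrc (0.264).

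Replicate numbers were not taken as pairs: deviations of same-numbered arrays correlated between -0.10 and 0.16 over 6 pairs of groups. With the replicate block the Notch1 null to wild type differences were 0.22 for Nppa, 0.21 for Nppb and 1.18 and 1.21 for Ankrd1, and the calls were 8 higher and 1 lower, with those of Gata6 (0.0502), Ryr2 (0.0557), Tfrc (0.0516) and Myl2 (0.0550) lost. Comparisons of the members with Dll3 null or the Notch1 heterozygote, and the stability of marker genes named after their values were seen, were added after seeing the data. Of the added comparisons, quantile normalization lowered the Ankrd1 differences of Notch1 null from the heterozygote to 0.80 and 0.48.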
